A study of Mus musculus with 3 samples.

Results

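The RUNX transcription factors, their binding partner Cbfb and the Groucho-type corepressors of the TLE family were examined in cultured adult mouse cardiomyocytes (ACMs). The 8 genes, chosen by name, were Runx1, Runx2, Runx3, Cbfb, Tle1, Tle2, Tle3 and Tle4, of 56748 genes in the count table. ACMs were isolated from hearts of WT mice 8 to 10 weeks old and cultured without serum, and each condition was represented by 1 library of pooled RNA. The vehicle group received 0.1% BSA, the OSM group 10 ng/mL mouse oncostatin M and the IL-6 group 10 ng/mL human interleukin-6, each for 16 h. All 3 groups shared the culture medium, which contained the myosin inhibitor BDM, insulin-transferrin-selenium and lipid. OSM and IL-6 are cytokines that signal through gp130, and the RNAseq was performed to find transcripts that lie downstream of OSM in cardiomyocytes.

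RUNX proteins bind DNA through their Runt domain, and Cbfb, which does not contact DNA itself, stabilizes that binding. Runx1 is known for its role in blood formation, Runx2 for bone and cartilage and Runx3 for T cells and sensory neurons, and in the heart Runx1 is known as a gene of injured cardiomyocytes. TLE proteins do not bind DNA and are brought to genes by factors such as the RUNX, HES/HEY and TCF/LEF proteins, where they repress transcription. Tle5 is a short family member that lacks the WD40 repeats of Tle1 to Tle4 and can act against them.

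RefSeq promoter windows of GRCm38.p6, each from 250 bases before to 50 bases after a start site, were found for all 8 genes (11 windows) and placed in GRCm39 by exact match. They are shown for the Runx genes because a short element was shared among them, and for Runx1 and Tle3 because these genes rose with OSM. The RUNX motif was searched as TGTGGT or TGCGGT on both strands and was present in 3 of the 11 windows, those at the upstream starts of Runx1, Runx2 and Runx3. In each of the 3 windows, 2 matches started 8 bases apart, within an identical stretch of 18 bases. The matches are in capitals, and on the strand shown they read as the reverse complement except for the last match of Runx2. The Runx1 stretch (chr16:92622919-92622936, minus strand) begins its matches at base 29 of the transcript and the Runx2 stretch (chr17:45125468-45125493, minus strand) at base 24, both in the transcribed 5′ end. The Runx3 stretch (chr4:134847820-134847837, plus strand) begins them 134 bases before the start.
Runx1: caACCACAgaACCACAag
Runx2: caACCACAgaACCACAagTGCGGTgc
Runx3: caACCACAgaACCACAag
Of 32851 RefSeq promoter windows, 22.4% held a RUNX motif and 24 (0.0731%) held 2 matches 8 bases apart, a spacing that was counted after these matches had been seen. The 18 bases were found in 4 windows, those of the Runx genes and that of Gm16225, which overlaps the Runx3 window on the other strand.

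The 250 bases before the Runx1 starts and the Tle3 start are given with the CCAAT box in capitals (CCAAT, or ATTGG for the other strand), a promoter element chosen after the windows had been read. It was present in 6 of the 11 windows and in 37.4% of all windows, and no match overlapped a RUNX match. The upstream Runx1 window lies at chr16:92622963-92623212 and the downstream one at chr16:92494218-92494467, both on the minus strand, and the Tle3 window lies at chr9:61279398-61279647 on the plus strand.
Runx1, upstream start: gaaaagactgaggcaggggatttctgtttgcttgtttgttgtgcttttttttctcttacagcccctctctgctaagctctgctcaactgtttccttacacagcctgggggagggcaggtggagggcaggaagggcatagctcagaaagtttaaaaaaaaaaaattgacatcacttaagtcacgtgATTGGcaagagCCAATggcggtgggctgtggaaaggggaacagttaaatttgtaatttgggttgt
Runx1, downstream start: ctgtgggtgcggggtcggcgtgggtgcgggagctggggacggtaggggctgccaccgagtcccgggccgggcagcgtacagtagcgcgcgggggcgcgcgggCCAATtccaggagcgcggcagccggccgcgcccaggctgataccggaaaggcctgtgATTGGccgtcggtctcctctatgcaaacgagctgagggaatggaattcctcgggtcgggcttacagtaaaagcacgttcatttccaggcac
Tle3: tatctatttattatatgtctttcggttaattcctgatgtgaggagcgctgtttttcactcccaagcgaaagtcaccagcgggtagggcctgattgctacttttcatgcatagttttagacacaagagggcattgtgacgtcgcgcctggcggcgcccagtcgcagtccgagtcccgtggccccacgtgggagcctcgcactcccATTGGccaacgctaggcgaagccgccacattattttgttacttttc
The STAT motif TTCNNNGAA, which reads the same on both strands, was present in 0 of the 11 windows and in 8.30% of all windows. Counts per gene do not separate transcripts from the upstream and downstream Runx1 starts.

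The deposited counts of fragments per gene summed to between 24939980 and 30773001 per library. With 1 library per condition there was no replicate spread, so differences are given with 95% intervals of counting error only, no P-value is given, and each comparison is one of libraries. PCR duplicates cannot be recognized in such counts, and the intervals do not cover them. Levels are the authors' fpkm, which are per gene length. That length differs from that of the canonical transcript, and unequally between genes. It is 12025 against 5861 bases for Runx1, 11653 against 5218 for Tle3 and 6221 against 2867 for Tle2. For Tle4 it is 5702 against 4799, for Cbfb 3480 against 2910 and for Tle1 8711 against 9481. Ratios, shares and orders between genes depend on the length used, which the intervals do not cover. Cardiomyocyte identity was checked with 10 marker genes, all of them detected in all libraries, with a summed level between 12791 and 16285 fpkm. Of these, Ryr2, the calcium release channel of the sarcoplasmic reticulum and a gene of 28790 bases, was lower with OSM, with 22606 counts with vehicle, 23555 with IL-6 and 9264 with OSM (log2 fold change against vehicle -1.53, -1.56 to -1.49). Its whole interval lay beyond 2-fold, as did that of none of the other 9.

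Runx1 was present at a low level in vehicle-treated ACMs and was higher with OSM, Runx2 was at or near 0 and Runx3 was at 0 in all libraries. Runx1 (ENSMUSG00000022952) lies on the minus strand of chr16:92398354-92623037 of GRCm39, where its canonical transcript has 8 exons. It had 129 counts with vehicle, 105 with IL-6 and 776 with OSM. Per gene length these are 0.424 fpkm (95% interval 0.354 to 0.504), 0.322 fpkm (0.264 to 0.390) and 2.16 fpkm (2.01 to 2.32). The vehicle and IL-6 intervals overlapped and the OSM interval lay above both. In the vehicle library, 13.6% of protein-coding genes that reached 10 counts had a lower level than Runx1, and in the OSM library 37.5%.

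Runx2 (ENSMUSG00000039153), at chr17:44806874-45125684 on the minus strand, had 0 counts with vehicle, 0 with IL-6 and 10 with OSM, which is 0.0379 fpkm (0.0182 to 0.0697). By the same interval, a count of 0 allows a level of up to 0.0165 fpkm with vehicle and 0.0154 fpkm with IL-6. Supt3, a subunit gene of a transcription coactivator complex that overlaps Runx2 on the opposite strand, had 577, 648 and 682 counts with vehicle, IL-6 and OSM. Whether the counting used the strand is not given in the sources used here, so the 10 counts cannot be assigned to Runx2 with certainty. Runx3 (ENSMUSG00000070691), at chr4:134847963-134905301 on the plus strand, had 0 counts in all 3 libraries. This allows a level of up to 0.0291 fpkm with vehicle, 0.0272 with IL-6 and 0.0247 with OSM. Transcripts of Runx3 were therefore not detectable at this depth.

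Cbfb (ENSMUSG00000031885), at chr8:105897306-105944621 on the plus strand, was the most abundant of the 8 genes in every library. It had 1238 counts with vehicle, 1272 with IL-6 and 1662 with OSM, or 14.1 fpkm (13.3 to 14.9), 13.5 fpkm (12.8 to 14.3) and 16.0 fpkm (15.2 to 16.8). Its level in the vehicle library was above that of 77.5% of the detected protein-coding genes. The ratio of the fpkm of Cbfb to that of Runx1, the DNA-binding partner, was 33.2 (27.6 to 40.1) with vehicle, 41.9 (34.3 to 51.6) with IL-6 and 7.40 (6.79 to 8.07) with OSM. The partner without DNA contact thus exceeded Runx1 per length in each library, by the smallest ratio with OSM.

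**Figure D1:**
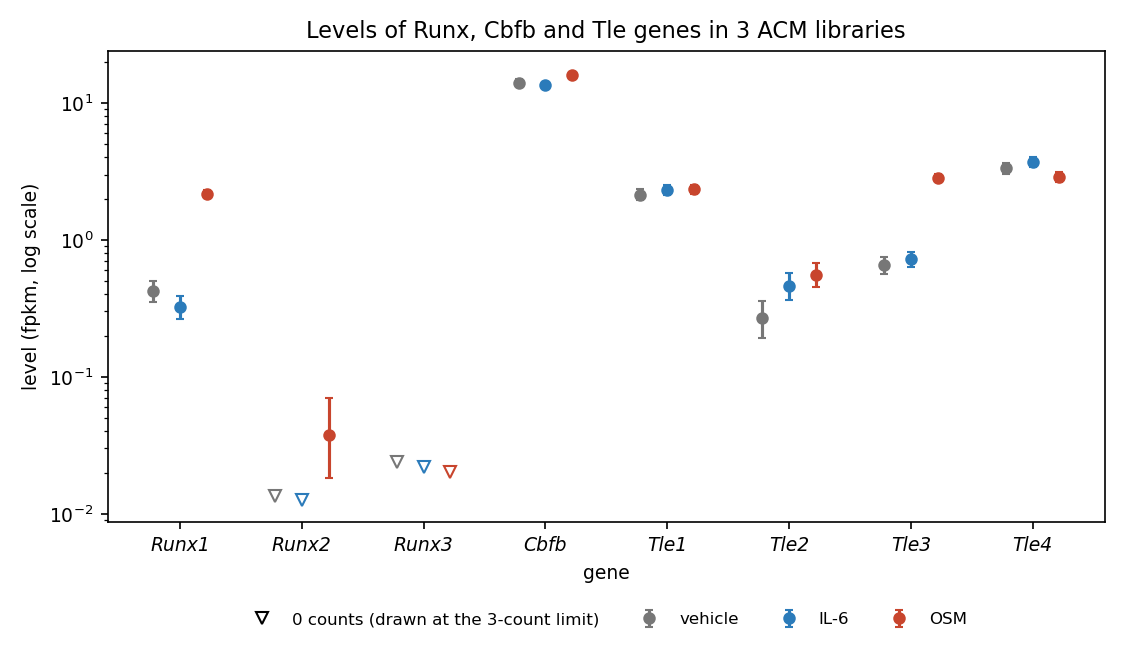
Level in fpkm (log axis) of each gene in the vehicle, IL-6 and OSM libraries, with 95% counting intervals and 1 point per library. Open triangles mark genes with 0 counts and stand at the level that 3 counts would give. Runx1 and Tle3 are the genes whose OSM point lies far above the other points, at 2.16 and 2.85 fpkm, and Cbfb is the highest in every library.

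Among the corepressors, Tle4 and Tle1 were the main transcripts of vehicle-treated ACMs, and Tle3 and Tle2 were minor ones. Tle1 (ENSMUSG00000008305, chr4:72035379-72119156, minus strand) had 472 counts with vehicle, 548 with IL-6 and 607 with OSM, or 2.14, 2.32 and 2.33 fpkm. The intervals of these levels overlapped in all 3 libraries. Tle2 (ENSMUSG00000034771, chr10:81410395-81426679, plus strand) had 42 counts with vehicle, 78 with IL-6 and 103 with OSM, or 0.267 fpkm (0.192 to 0.361), 0.463 fpkm (0.366 to 0.577) and 0.554 fpkm (0.452 to 0.672). The vehicle level lay below the other intervals, which overlapped each other.

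Tle3 (ENSMUSG00000032280, chr9:61279648-61325779, plus strand) had 192 counts with vehicle, 228 with IL-6 and 993 with OSM. These are 0.651 fpkm (0.562 to 0.750), 0.722 fpkm (0.631 to 0.822) and 2.85 fpkm (2.68 to 3.04). The OSM level was set apart from the vehicle and IL-6 levels, whose intervals overlapped. Tle4 (ENSMUSG00000024642, chr19:14425514-14575415, minus strand) had 481 counts with vehicle, 574 with IL-6 and 491 with OSM, or 3.33 fpkm (3.04 to 3.65), 3.71 fpkm (3.42 to 4.03) and 2.88 fpkm (2.63 to 3.15). Its OSM interval overlapped that of vehicle and lay below that of IL-6.

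In the vehicle library the order of levels was Cbfb, Tle4, Tle1, Tle3, Runx1 and Tle2, and Runx1 and Tle2 were the only neighbours in this order with overlapping intervals, apart from Runx2 and Runx3 at 0. In the IL-6 library Tle2 stood before Runx1, again with overlapping intervals. In the OSM library the order was Cbfb, Tle4, Tle3, Tle1, Runx1, Tle2 and Runx2. There Tle4 and Tle3 did not differ beyond their counting error, nor did Tle1 and Runx1 or Runx2 and Runx3.

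The comparison of OSM with vehicle asked which of these genes differed between the OSM and vehicle libraries. Runx1 and Tle3 were higher with OSM, and none of the 8 genes was lower by the rule used. Under this rule the whole interval of the log2 fold change had to lie beyond 2-fold. Of the 7 members with at least 10 counts over both libraries, 2 were higher and 0 lower. Among the 7, Runx2 reached that minimum only through the OSM library and could not have been called lower. Over all 15537 genes compared, 3.74% were higher and 5.43% were lower. The median log2 fold change of the 6 members with counts in both libraries was 0.62, beside 0.00459 over all genes.

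The log2 fold change of Runx1 was 2.35, with an interval of 2.08 to 2.63, which is a 5.09-fold higher level (4.22 to 6.18). That of Tle3 was 2.13, with an interval of 1.90 to 2.36, a 4.37-fold higher level (3.74 to 5.13). These values lay above those of 99.3% and 99.1% of the 9445 protein-coding genes with a mean of at least 100 counts. For Runx2, with 0 counts taken as a floor of 3 in the vehicle library, the 10 counts with OSM are 2.82-fold higher. The lower end of its counting interval was 1.90-fold, short of 2-fold. With the length trend removed it was called, but that trend comes from genes with a mean of at least 100 counts.

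For Tle2 the log2 value was 1.05 (0.52 to 1.61), above 0 with its whole interval and not beyond 2-fold. Cbfb stood at 0.18 (0.08 to 0.29), also above 0, and Tle1 at 0.12 (-0.05 to 0.30), whose interval held 0. Tle4 stood at -0.21 (-0.40 to -0.03), below 0 and within 2-fold. With edgeR's exact test with the biological coefficient of variation (BCV) set to 0.4, 0 members were called, where 43 of all genes were higher and 11 lower. At an assumed BCV of 0.2 the test called 2 members higher, where 630 of all genes were higher and 877 lower.

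**Figure D2:**
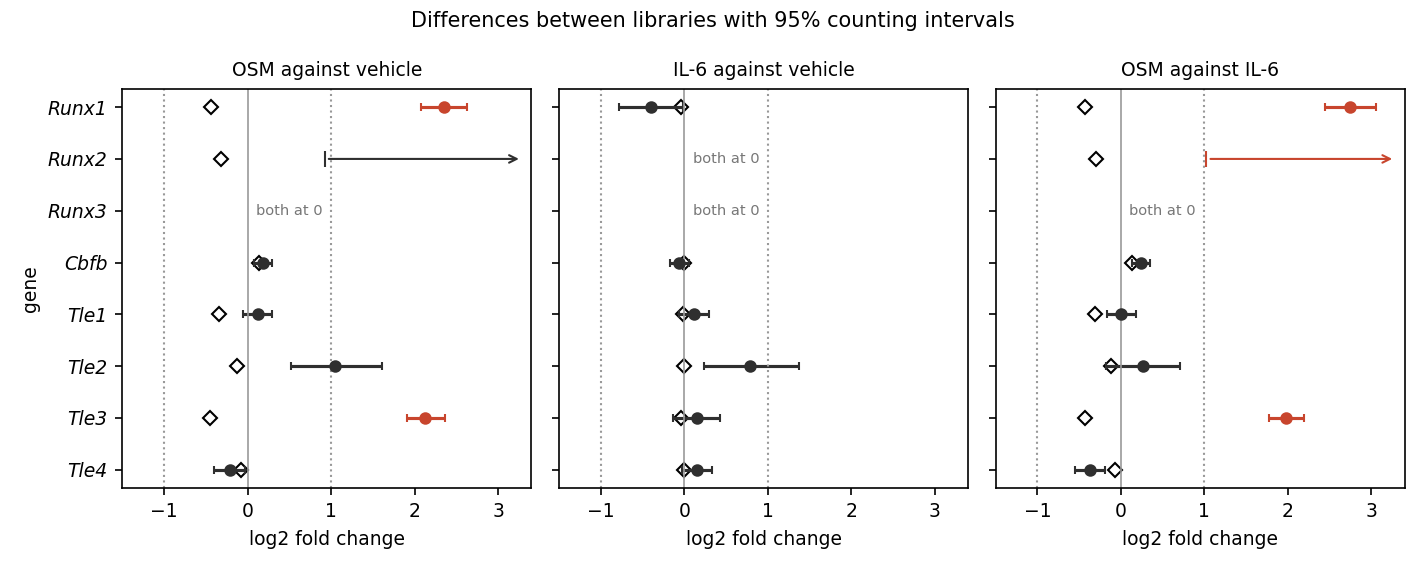
Log2 fold change of each gene (x axis) for OSM against vehicle, IL-6 against vehicle and OSM against IL-6, with 95% counting intervals. Red marks genes whose interval lies wholly beyond 2-fold (dotted lines), arrows show Runx2 from the lower end of its open interval, and open diamonds give the median of the 500 genes nearest in length. Runx1 and Tle3 stand between 1.98 and 2.74 in both comparisons with the OSM library and within 2-fold in the comparison of IL-6 with vehicle.

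Gene length moved with the log2 fold change across genes, which are not independent (Spearman's rho -0.52 over the 9445 genes), and longer genes had lower values with OSM. Runx1 and Tle3 are long, with gene lengths of 12025 and 11653 bases in the authors' annotation. The 500 protein-coding genes nearest to Runx1 in length, from 10490 to 13540 bases, had a median change of -0.44 on the log2 scale, and 1.60% of them were called higher. The genes nearest to Tle3 had a median of -0.45. With these medians subtracted, Runx1 was at 2.79 and Tle3 at 2.58. Tle1, of 8711 bases, moved from 0.12 to 0.46 and Cbfb, of 3480 bases, from 0.18 to 0.051.

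**Figure D3:**
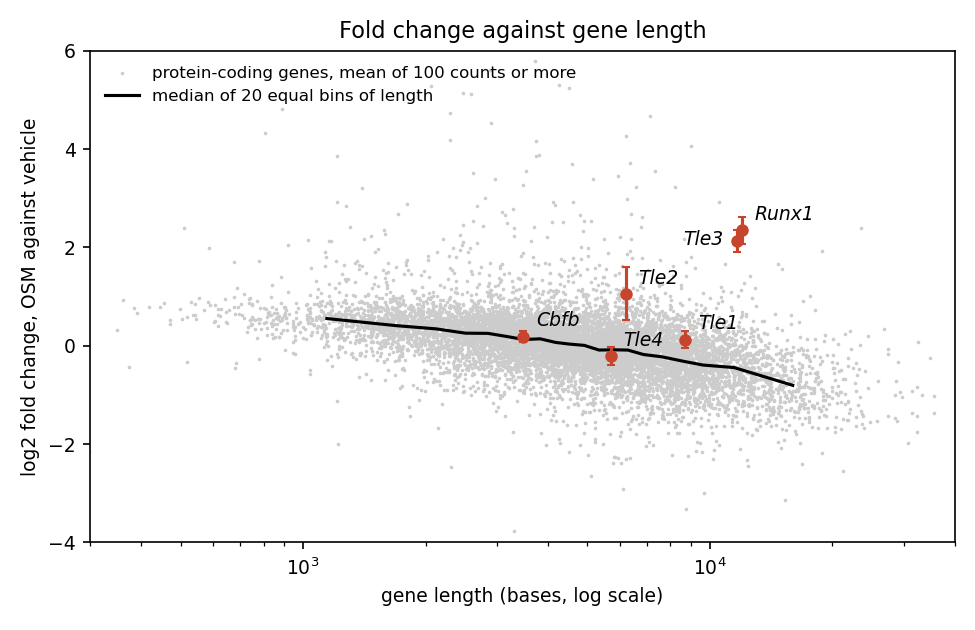
Log2 fold change of OSM against vehicle (y axis) against gene length in bases (log x axis) for 9445 protein-coding genes with a mean of at least 100 counts (grey; a few lie outside the axes), with the median of 20 equal bins of length as a line. The named members are in red with 95% counting intervals. Runx1 and Tle3 lie at 2.35 and 2.13, far above the line at their length, and Cbfb and Tle4 lie near it. Tle1 lies above it, at 0.12 beside a median of -0.34 for the 500 genes nearest in length.

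The TLE genes differed from each other in their change with OSM, and Runx1 differed from Cbfb. For pairs of genes, the difference of their log2 fold changes was tested from the 4 counts with an exact conditional interval, which needs no scaling between libraries. Of 8 pairs, 6 of them among the Tle genes, 7 differed with an interval that left out 0. The exception was Runx1 with Runx2, whose 0 counts with vehicle leave the difference open at an end. The Runx1 change exceeded that of its partner Cbfb by 2.16 (1.87 to 2.46). The Tle3 change exceeded that of Tle4 by 2.34 (2.05 to 2.64). The change of Tle1 minus that of Tle3 was -2.01 (-2.30 to -1.72), and that of Tle2 minus that of Tle3 was -1.08 (-1.66 to -0.47). Tle1 and Tle4, both within 2-fold, differed by 0.33 (0.08 to 0.59).

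The corepressor transcripts therefore had another composition with OSM. Of the summed fpkm of Tle1 to Tle4, Tle4 made up 52.1% with vehicle, Tle1 33.5%, Tle3 10.2% and Tle2 4.17%. With IL-6 the shares were 51.4% for Tle4, 32.1% for Tle1, 10.00% for Tle3 and 6.41% for Tle2. With OSM, Tle4 and Tle3 were nearly level, at 33.4% and 33.1%, beside 27.1% for Tle1 and 6.43% for Tle2. The sum itself was 6.39 fpkm with vehicle, 7.22 with IL-6 and 8.62 with OSM. The ratio of Tle3 to Tle4 per length was 0.195 (0.164 to 0.231) with vehicle, 0.194 (0.166 to 0.227) with IL-6 and 0.990 (0.887 to 1.10) with OSM. With the authors' gene lengths, the OSM interval holds a ratio of 1 and the other intervals do not. The ratio depends on these lengths, and that of Tle3 exceeds its canonical transcript by far more than that of Tle4.

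**Figure D4:**
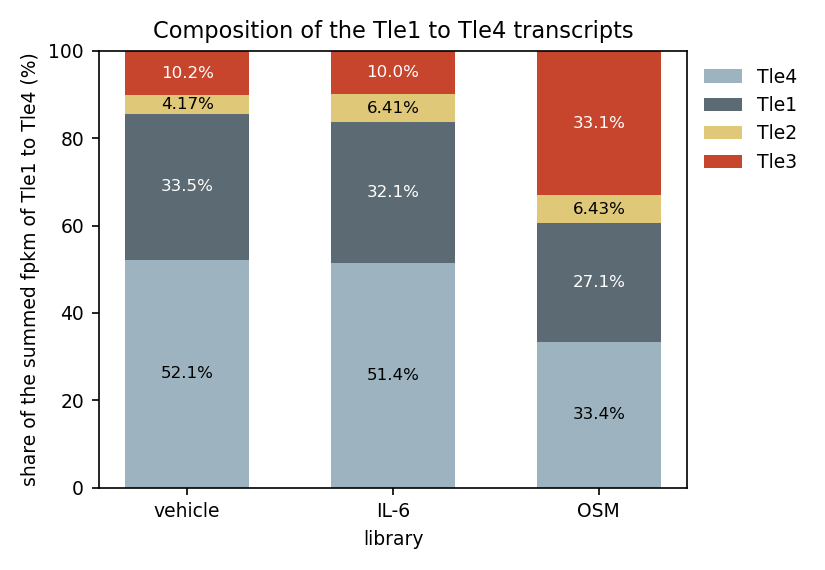
Share of each gene (stacked bars, in percent) in the summed fpkm of Tle1 to Tle4 in the vehicle, IL-6 and OSM libraries. The vehicle and IL-6 bars are alike, and Tle3 takes 33.1% of the OSM bar against 10.2% with vehicle.

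Tle5, the short member, was far more abundant than the corepressors it can oppose. It had 17375 counts with vehicle, 19450 with IL-6 and 31358 with OSM, or 206, 215 and 315 fpkm. The ratio of its fpkm to the sum of Tle1 to Tle4 was 32.2 with vehicle, 29.8 with IL-6 and 36.5 with OSM. The change of Tle5 itself, OSM against vehicle, was 0.61 on the log2 scale (0.58 to 0.64), within 2-fold. Per Tle3 transcript, the Tle5 ratio was 316 (274 to 367) with vehicle and 110 (104 to 118) with OSM. Tle6, a more distant relative, had 188, 180 and 157 counts with vehicle, IL-6 and OSM, and Tle7 had 0 in each.

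Human IL-6 was compared with vehicle in the same way, and none of the members was called. Of the 6 with enough counts, 0 were higher and 0 lower, where 1.77% of 15472 genes were higher and 1.74% were lower. At an assumed BCV of 0.2, edgeR's exact test called 0 members, where 112 of all genes were higher and 125 lower. At 0.4 it called 0 members and, over all genes, 1 higher and 0 lower, so that setting says nothing of the members. Runx1, at 105 counts against 129, was at -0.40 on the log2 scale (-0.78 to -0.01), the opposite sign to OSM. Tle2, at 78 counts against 42, had the largest value of the 6, 0.79 (0.23 to 1.37), and its interval left out 0. Tle4 with 0.16 (-0.02 to 0.33), Tle3 with 0.15 (-0.14 to 0.43), Tle1 with 0.12 (-0.06 to 0.30) and Cbfb with -0.06 (-0.17 to 0.05) all had intervals that held 0. Of 7 pairs of genes, 3 differed, each of them a pair of Tle2 with another Tle gene. Tle2 exceeded Tle4 by 0.64 (0.05 to 1.24).

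OSM was set directly against IL-6, which uses the same OSM library as the first comparison. Runx1, Tle3 and Runx2 were higher and 0 of the 7 members compared were lower, where 4.24% of 15544 genes were higher and 5.42% were lower. The log2 fold change was 2.74 (2.45 to 3.05) for Runx1 and 1.981 (1.772 to 2.195) for Tle3. The Runx2 call rests on 10 counts against 0, which is 3.02-fold higher with the 0 taken as 3 counts. Runx2 reached the minimum of 10 counts only through the OSM library, so it could be called higher but not lower. The lower end of its counting interval, 2.03-fold, was just past 2-fold. Runx2 was not called with scaling by total counts, and at least 100 counts over both libraries would leave it out. The log2 fold change was -0.37 (-0.54 to -0.19) for Tle4, 0.24 (0.14 to 0.35) for Cbfb and 0.26 (-0.18 to 0.70) for Tle2. Tle1 had a value of 0.01 (-0.16 to 0.18), whose sign changed under 1 of 4 other scalings. At an assumed BCV of 0.4, edgeR's exact test called 0 members here too, where 57 of all genes were higher and 20 lower. Of 8 pairs, 6 differed, and Tle3 exceeded Tle4 by 2.35 (2.07 to 2.63), while Runx1 exceeded Cbfb by 2.50 (2.18 to 2.83).

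Low counts in these files were even more often than odd. Of the genes with 1 to 10 counts, 63.3% had an even count with vehicle, 62.4% with IL-6 and 65.2% with OSM, beside 49.9%, 50.4% and 50.9% of the genes with at least 100 counts. The cause was not tested. With all counts halved before the interval, an alternative added after this was seen, Runx2 was no longer called against IL-6, while Runx1 and Tle3 were still called in both comparisons with OSM. The interval of Runx1 against vehicle then ran from 1.96 to 2.75 and that of Tle3 from 1.81 to 2.46. For IL-6 against vehicle, the halved intervals of Tle2 (-0.008 to 1.63) and Runx1 (-0.95 to 0.15) held 0. That of Tle4 for OSM against vehicle (-0.47 to 0.05) also held 0. Those of Tle2 and Cbfb for OSM against vehicle, and of Tle4 and Cbfb for OSM against IL-6, still left out 0.

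The genes that work with these factors were taken from lists. Of 28 cofactors and modifiers of RUNX proteins, 27 were compared between OSM and vehicle, and 0 were higher and 4 lower, with a median log2 fold change of -0.23. Here and in the lists that follow, the shares over all genes were 3.74% higher and 5.43% lower for OSM against vehicle, and the median was 0.00459. The shares were 4.24% and 5.42% for OSM against IL-6, and 1.77% and 1.74% for IL-6 against vehicle. The counts are a description and were not tested against these shares. Hipk2, a kinase that phosphorylates RUNX proteins, fell from 4391 to 1094 counts (log2 fold change -2.25, -2.34 to -2.15). Kmt2a, a histone H3 lysine methyltransferase, fell from 1762 to 529 counts (-1.98, -2.12 to -1.84). Ncor1, a corepressor that binds histone deacetylases, fell from 5043 to 2253 counts (-1.40, -1.48 to -1.33), and Ep300, a histone acetyltransferase, from 2028 to 917 (-1.387, -1.501 to -1.273). All 4 are long genes, of 8836 to 16670 bases, in the range where log2 fold changes were mostly below 0. The part of gene length in these values was not tested. Smad1, a mediator of BMP signals, had 594 counts with vehicle and 1479 with OSM (1.07, 0.94 to 1.21), which was not beyond 2-fold with its whole interval, and was called against IL-6 at 1.21 (1.07 to 1.36). Runx1t1, a corepressor known from its fusion to RUNX1 in leukemia, had 4, 6 and 20 counts with vehicle, IL-6 and OSM and was not called.

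Of 31 factors known to recruit TLE proteins, 14 were compared, with 3 higher, 1 lower and a median of 0.26. Hes1, a repressor that carries a TLE-binding motif and is a Notch target, rose from 198 to 621 counts (1.41, 1.17 to 1.65), and had 313 counts with IL-6. Hhex, a homeobox repressor, rose from 2 to 24 counts (3.34, 1.33 to 6.47), and Tcf7, a TCF/LEF factor, from 1 to 16 (3.76, 1.07 to 9.15). The last 2 rises rest on few counts and have wide intervals. Tbx20, a T-box factor of cardiomyocytes with 11997 bases, fell from 1592 to 804 counts (-1.23, -1.35 to -1.10). Against IL-6, Hhex was called higher and Helt, with 16 counts with IL-6 and 2 with OSM, lower, and 13 factors were compared. The same comparison had 1 cofactor higher, Smad1, and 4 lower, Hipk2, Kmt2a, Ncor1 and Ep300.

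Of 23 listed targets of RUNX factors, 7 were compared and 0 were called in either direction, with a median of 0.08. Cdkn1a, a cell cycle inhibitor, had 7925 counts with vehicle and 14411 with OSM (0.62, 0.58 to 0.66). Vegfa, next to it in level on this list, went the other way, with 3152 and 3089 counts (-0.27, -0.34 to -0.20). Csf1r, a receptor gene of macrophages that RUNX1 regulates in blood cells, had 187 and 209 counts (-0.08, -0.37 to 0.21). Of the bone genes of the list, Spp1, with 9 counts with vehicle and 6 with OSM, was near 0. Alpl was not, with 163 and 271 counts (0.49, 0.21 to 0.78), a change within 2-fold. Of 16 listed TCF/LEF targets, 15 were in the table and 10 were compared, with 2 higher, 1 lower and a median of -0.03. These were Tcf7, which is on both lists, Bmp4, and Znrf3, which fell from 281 to 114 counts (-1.54, -1.87 to -1.22). Bmp4 passed the minimum of 10 counts only through the OSM library. It had 0 counts in the vehicle library against 21 with OSM. With the 0 taken as 3 counts this is 5.92-fold higher, and the lower end of its log2 interval was 2.14. Both medians are the same with the genes at 0 in vehicle set to that floor.

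With IL-6 against vehicle, 0 members of any of these lists were called, where 1.77% of all genes were higher and 1.74% lower. Tcf7l1, a repressor among the TCF/LEF factors, had 69 counts with vehicle and 150 with IL-6 (1.02, 0.60 to 1.45), and Hes1 stood at 0.56 (0.30 to 0.83) on the log2 scale, neither of them beyond 2-fold.

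**Figure D5:**
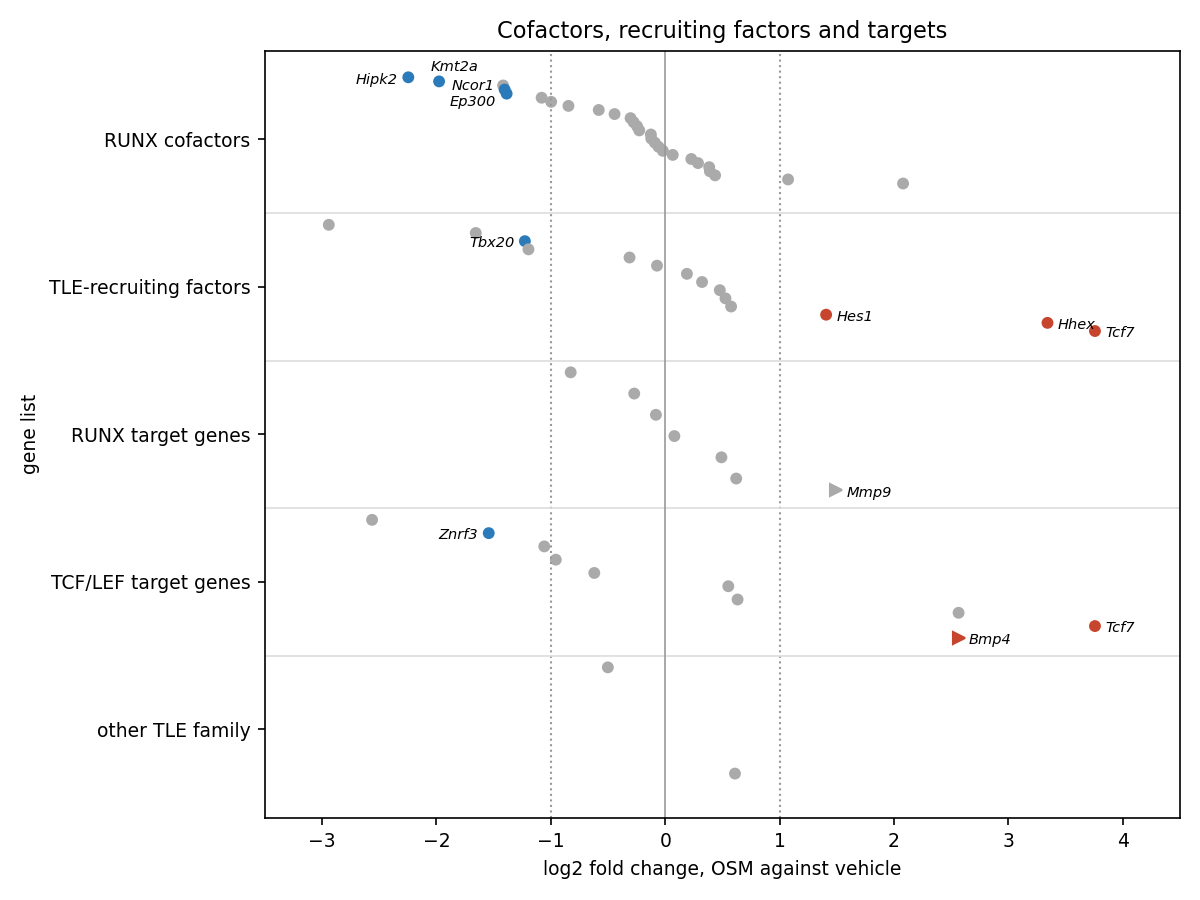
Log2 fold change of OSM against vehicle (x axis) for each compared gene of 5 lists (rows; height within a row has no meaning). Red points are called higher and blue points lower beyond 2-fold (dotted lines), and grey points are not called. Triangles are genes with 0 counts with vehicle, placed at their fold over a floor of 3 counts. The 4 called cofactors lie below -1 and 3 of the 4 called recruiting factors above 1.

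Runx1 and Runx3 are also genes of blood cells, so markers of other cells were read in the same libraries. The summed level of 10 macrophage markers was 14.0 fpkm with vehicle, 14.9 with IL-6 and 40.3 with OSM. Of this, Cd68, a lysosomal protein gene, made up 12.01, 13.15 and 37.80 fpkm, and it was called higher with OSM in both comparisons. Csf1r, the receptor for colony-stimulating factor 1, had 187, 166 and 209 counts with vehicle, IL-6 and OSM, and its level of 1.28, 1.06 and 1.21 fpkm was above that of Runx1 in the vehicle and IL-6 libraries. Lyz2, the lysozyme gene of myeloid cells, had 13, 4 and 31 counts and was called higher with OSM than with IL-6 (2.81, 1.31 to 4.78). Of the 10 markers, 4 were at 0 with vehicle, 5 with IL-6 and 3 with OSM, and Ptprc, C1qa and C1qb were at 0 in all 3 libraries. The summed level of 8 T cell markers was between 0.0818 and 0.151 fpkm, with 5 of them at 0 with vehicle and 6 with IL-6 and with OSM, Cd3e, Cd3g and Trac among them in all libraries. The summed level of 7 megakaryocyte and erythroid markers was 0.839 fpkm with vehicle, 1.30 with IL-6 and 1.78 with OSM. Of these, Ppbp, Gp9 and Gata1 were at 0 in all libraries, and Hbb-bs was at 0 with vehicle. Itga2b had 30, 24 and 69 counts with vehicle, IL-6 and OSM, and Hba-a1, a hemoglobin gene, had 6, 12 and 20. Summed fibroblast markers lay between 0.770 and 1.08 fpkm, endothelial markers between 8.21 and 8.81 and smooth muscle and pericyte markers between 13.0 and 15.2. Of the last sum, Acta2 alone made up 12.19 fpkm with vehicle, 12.12 with IL-6 and 14.26 with OSM. Each other marker of that list was at most at 0.635 fpkm, the level of Rgs5 with vehicle. The part of non-cardiomyocytes in the levels of Runx1 and Tle3 was not tested, and in these bulk libraries fewer cells of a type and less RNA per cell cannot be told apart.

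The genes whose levels over the 3 libraries were most like those of a member were sought among 9439 protein-coding genes, by the distance between log2 levels centred on their mean. With only 3 libraries this is a description. Nearest to Runx1 were Cd44, a hyaluronan receptor, at a distance of 0.0675, Bcl3, a nuclear IκB protein, at 0.0790 and Sema6b, a semaphorin, at 0.122. Within a distance of 0.1 there were 2 genes for Runx1 and 4 for Tle3. Nearest to Tle3 were Cav3, the caveolin of muscle, at 0.0385, Phlda1 at 0.0686 and Lrg1, a secreted leucine-rich glycoprotein, at 0.0812. For Cbfb, Tle1 and Tle4, whose levels changed little, 811, 665 and 394 genes lay within 0.1.

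Copies of the members in other genes were sought by BLAST with their canonical transcripts. At 97% identity over 100 bases or more, 7 of the 8 had no match. The Tle3 transcript matched that of the lncRNA gene Gm10655 over 16.0% of its length, and Gm10655 had 0 counts in all libraries. At 90% identity a stretch of 5.65% of the Tle2 transcript matched 47 other genes, so Tle2 counts from that stretch are uncertain. Counted sequence outside the canonical transcripts was not searched. The counted length is 6221 bases against 2867 searched for Tle2, 12025 against 5861 for Runx1 and 11653 against 5218 for Tle3. Besides Supt3, the genes that overlap members had at most 1 count in a library.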

How the data were processed

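RNA of cultured ACMs was pooled, and 1 poly-T selected library was sequenced per condition. Per the labels, the submitters' processing notes name fastp, HISAT2 2.2.1, featureCounts 2.0.6, edgeR 4.0.16 and the build mm39 (GRCm39). The authors deposited counts of fragments per gene, without normalization, and fpkm made from the same counts. The fpkm are scaled by gene length and by a library size that differs from the total counts. Gene positions and lengths come from the deposited annotation columns, and no column was unmatched (0).

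Libraries were grouped by the treatment in their labels. Counts were scaled for each pair of libraries with TMM (edgeR 4.0.16, R 4.3.3), and only genes that reached 10 counts in the pair together were compared. A gene at or near 0 in a library could pass only through the other library, and so only with a difference in that direction. The log2 fold change is that of the scaled counts, its 95% interval is the exact binomial (Clopper-Pearson) one for the share of a gene's counts that fell in a library, and a call required the whole interval to lie beyond 2-fold. A library at 0 was given a floor of 3 counts. Differences between genes used the conditional odds ratio of the 4 counts. Intervals of levels are exact Poisson intervals (scipy 1.17.1). All of these cover counting error only, which is smaller in the deeper libraries, and say nothing of the spread between animals or cultures. Promoters came from RefSeq, and exons and transcripts from GENCODE M39.

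The members and the lists were chosen with earlier results of these data known, which holds also for the alternatives. Named genes were the 8 members, from each list up to 5 called genes with the largest change and otherwise up to 2 with the highest level, and for each member with a mean of at least 100 counts the 3 genes most like it. Other list genes (Smad1, Runx1t1, Csf1r, Spp1, Alpl and Tcf7l1), the marker genes and Helt with IL-6 are also given, some of them chosen after their values were seen. The alternatives were other scalings, the fpkm ratio, removal of the length trend, other filters and call rules, shares of raw counts and halved counts.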

Additional observations from a re-analysis of the deposited data

How the results depend on the processing

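With 1 library per condition no replicate could be left out, and no paired analysis was possible because no condition had a second library. Of 201 values under the alternatives, 185 were rated the same and 16 moved, and none reversed a called value. Some ratings were fixed in advance. Halving the counts leaves each log2 value as it was, so uncalled genes were rated the same by construction. The Runx shares with vehicle and with IL-6, at 100% for Runx1, could not move either. A called gene was rated the same if it stayed called, whatever the new value. Other values had to stay within counting error, or within 1.5 times for a count of calls. With the length trend removed, Runx1 and Tle3 stayed called with OSM but lay above their counting intervals. They stood at 2.79 and 2.58 against vehicle and at 3.17 and 2.41 against IL-6. Over the other scalings and the fpkm ratio, Runx1 stayed between 2.29 and 2.38 for OSM against vehicle. The library sizes within the fpkm are close to those of TMM. The fpkm ratio, at 2.349 for Runx1 beside 2.347, is therefore hardly a separate check. With the trend on gene length removed, Cbfb moved to 0.051 and Tle1 to 0.46 for OSM against vehicle, and to 0.11 and 0.32 for OSM against IL-6. By the point estimate without an interval, 4 members were higher with OSM than with vehicle, Runx2 among them. No count over all genes is given for this rule. At an assumed BCV of 0.4, edgeR's exact test called 0 members higher in either comparison with OSM, and over all genes 43 against vehicle and 57 against IL-6. With halved counts, 337 genes were higher and 487 lower with OSM than with vehicle, and the Runx2 call against IL-6 was lost. That call was also lost with scaling by total counts and with a minimum of 100 counts, which left 2 members higher each, while against vehicle Runx2 became a call with the length trend removed and at 1.5-fold, for 3 members higher each. A rule of 1.5-fold gave 1357 higher and 1850 lower genes for OSM against vehicle. For total counts, the minimum of 100 counts and the removed length trend, no count over all genes is given. As shares of raw counts, which are not per length, the vehicle library had 39.8% Tle1, 16.2% Tle3 and 40.5% Tle4, and the IL-6 library 38.4%, 16.0% and 40.2%. The OSM library had 4.69% Tle2, 45.3% Tle3 and 22.4% Tle4, so that the order of Tle3 and Tle4 there depends on the division by length. The cause was not tested beyond the construction of each alternative. Depth limits Runx2, Runx3 and Tle2 most, with at most 103 counts in a library.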
